A study of Mus musculus with 8 samples.

Results

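The chemokine genes Cxcl5, Cxcl3, Cxcl1 and Cxcl2 lie close together on mouse chromosome 5, and the binding of phosphorylated STAT3 was described over an interval of 300 kb that was set to hold them (mm9, chr5:91080000-91380000). Every peak of the 6 deposited lists that overlapped this interval was a member. This gave 15 distinct sites of 5343 in the whole series, counting sites of exact position. The interval was chosen by the listed positions of peaks in these same lists, as a stretch rich in sites. The number and the listing of its sites are therefore given as a description, without a test.

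The data are chromatin immunoprecipitation with sequencing (ChIP-seq) for STAT3 phosphorylated on tyrosine, from mouse embryonic fibroblasts. All cells were STAT3-/- and carried an inducible construct for a single spliceform, either STAT3α (iSTAT3α line) or STAT3β (iSTAT3β line), under puromycin selection. All were given 1 nM 4-hydroxytamoxifen for 48 h or more to induce the spliceform and were kept without serum for 16 h. Human recombinant oncostatin M (OSM) at 10 ng/mL was then applied for 0, 30 or 180 min, so that the 6 groups were iSTAT3α and iSTAT3β cells at each of these times. STAT3α is the full-length factor, and STAT3β is truncated and has no C-terminal transactivation domain. Each group had 1 list, made from merged reads, so that no value below has an error between samples, and each spliceform was represented by 1 cell line. Spliceform, cell line and library therefore cannot be told apart. At 0, 30 and 180 min the lists held 9, 3725 and 40 peaks for STAT3α and 12, 3891 and 120 peaks for STAT3β. They give positions only, with no height or score, and the sequencing depth behind them is unknown.

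OSM is a cytokine of the interleukin-6 family whose receptors activate JAK kinases, which phosphorylate STAT3 on tyrosine so that it dimerises and binds DNA. CXC chemokines are small secreted proteins that attract leukocytes. Cxcl1, Cxcl2, Cxcl3 and Cxcl5 belong to the subgroup that acts through the receptor CXCR2 and attracts neutrophils, and fibroblasts are among the cells that make such chemokines in inflamed tissue. Their transcription is classically driven by NF-κB, a factor activated by inflammatory signals. In the RefSeq gene table, which belongs to GRCm38.p6, the protein-coding genes run in the order Rassf6, Cxcl5, Ppbp, Pf4, Cxcl3, Cxcl15, Cxcl1, Cxcl2 and Mthfd2l. Ppbp and Pf4 encode platelet chemokines, and Cxcl15 encodes lungkine, a chemokine of the lung. No gene annotation of mm9 was used here, so that the place of the genes within the interval was not checked and no single site is assigned to a gene.

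Promoters of 3 of the 4 members are shown because they share a κB element, the DNA sequence bound by NF-κB. The RefSeq promoter table matched 6 of the 7 chemokine genes, all but Cxcl5. The 250 bases before the start of transcription are printed for Cxcl3, Cxcl1 and Cxcl2. Capitals mark GGGAATTTCCC, the longest run of bases common to these 3 promoters, which holds the κB element. All 3 are on the plus strand of GRCm38.p6, whose positions cannot be compared with the mm9 positions of the sites. They are chr5:90785851-90786100 for Cxcl3, chr5:90890995-90891244 for Cxcl1 and chr5:90903649-90903898 for Cxcl2.
Cxcl3: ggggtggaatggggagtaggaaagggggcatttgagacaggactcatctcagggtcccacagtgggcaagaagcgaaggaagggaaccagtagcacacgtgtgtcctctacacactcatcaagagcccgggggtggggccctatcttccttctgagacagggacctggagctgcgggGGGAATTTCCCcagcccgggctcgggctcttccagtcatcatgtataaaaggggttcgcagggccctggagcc
Cxcl1: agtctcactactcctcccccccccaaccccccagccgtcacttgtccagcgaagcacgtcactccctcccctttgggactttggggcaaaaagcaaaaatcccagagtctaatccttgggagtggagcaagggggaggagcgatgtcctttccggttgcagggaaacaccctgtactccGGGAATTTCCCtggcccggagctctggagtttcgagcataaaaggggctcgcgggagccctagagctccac
Cxcl2: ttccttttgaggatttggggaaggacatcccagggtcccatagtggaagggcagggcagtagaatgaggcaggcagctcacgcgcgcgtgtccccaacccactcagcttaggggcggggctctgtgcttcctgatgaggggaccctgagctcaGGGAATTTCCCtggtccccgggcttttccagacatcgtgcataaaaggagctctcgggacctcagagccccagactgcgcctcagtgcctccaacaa

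The common run was 11 bases long and began 73 bases before the start of Cxcl3, 71 bases before that of Cxcl1 and 97 bases before that of Cxcl2. Searched on both strands, it occurred in 14 of all 32851 promoters of the table (0.0426%), and it was chosen because Cxcl3, Cxcl1 and Cxcl2 share it. Cxcl1 and Cxcl2 shared 14 bases around it, GGGAATTTCCCTGG. The promoters of Ppbp, Pf4 and Cxcl15 did not hold it. The recognition letters of STAT factors, TTCNNNGAA on both strands, were found in none of the 6 chemokine promoters and in 7.02% of all promoters. The stricter form TTCCNGGAA, which is contained in it, was found in none of the 6 and in 0.913% of all promoters. These windows are short, and a match or its absence is a description of letters. The sequences of the STAT3 sites themselves were not used, since no genome of mm9 was at hand.

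All 15 sites were listed at 30 min of OSM and at no other time, counting peaks of exact position. The STAT3α 30 min list held 8 of them and the STAT3β 30 min list 13. Both lists held 6 sites (40%, 95% exact binomial interval 16.3 to 67.7%), against 42.7% of all 30 min sites. The STAT3α list alone held 2 (13.3%, interval 1.66 to 40.5%), against a background of 27.1%. The STAT3β list alone held 7 (46.7%, interval 21.3 to 73.4%), against a background of 30.2%. The intervals cover counting over sites only. They show how imprecise a share of 15 sites is and are no test against the series, since the same lists chose the interval.

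**Figure D1:**
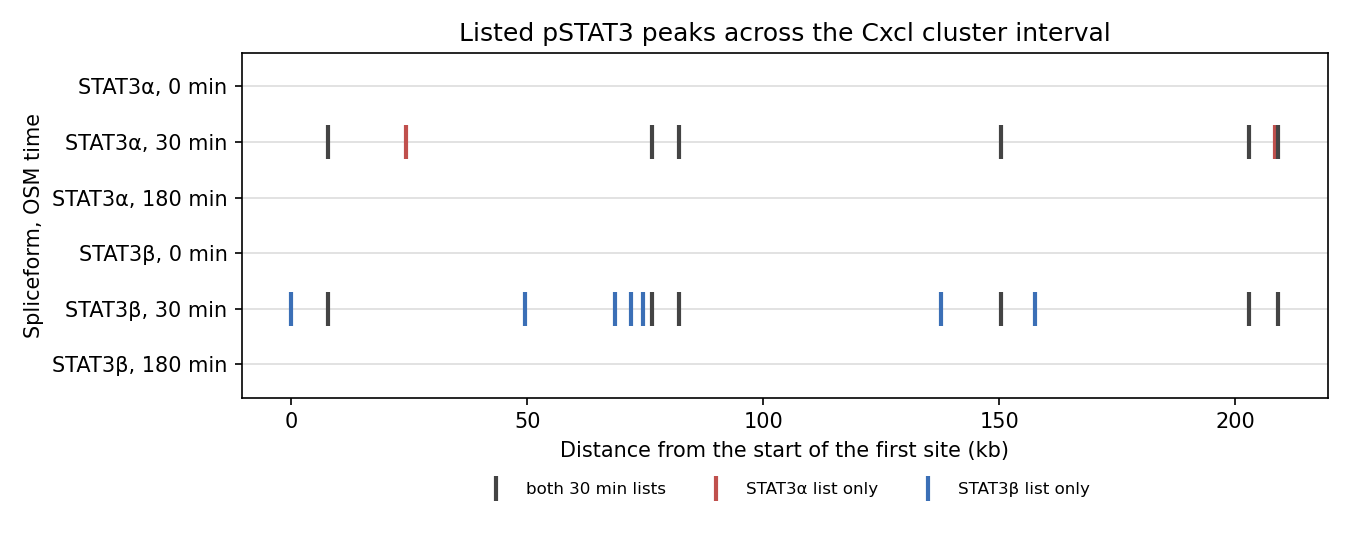
Peaks of the 6 lists across the chemokine interval, with distance from the start of the first site in kb on the horizontal axis and 1 row per spliceform and OSM time. Ticks mark listed sites, coloured by their 30 min listing. The 8 STAT3α and 13 STAT3β peaks stand in the 30 min rows, and the rows of 0 and 180 min are empty.

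The sites were split into a first and a second group at bounds that were set together with the interval. Between the groups lay 55.2 kb without a peak, and the second group itself held a gap of 45051 bp. The first group ran from 91110969 to 91193504 and held 9 sites over 82.5 kb. The second group ran from 91248711 to 91320450 and held 6 sites over 71.7 kb. From the first to the last site the cluster spanned 209 kb. Every site was 400 bp wide, as were 5326 of all 5338 sites at 30 min.

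In the first group the STAT3α list held 4 of the 9 sites and the STAT3β list 8. It opened with a STAT3β-only site at chr5:91110969-91111368. The next, at chr5:91118681-91119080, was in both lists. The third, at chr5:91135335-91135734, was in the STAT3α list alone and was the only such site of this group. Then came 4 successive sites of the STAT3β list alone, at chr5:91160358-91160757, chr5:91179425-91179824, chr5:91183007-91183406 and chr5:91185481-91185880. The group closed with a pair of sites in both lists, at chr5:91187267-91187666 and chr5:91193105-91193504. The stretch from 91179425 to 91193504 was the most crowded of the first group, with 5 sites whose starts were 1786 to 5838 bp apart. Its first 3 sites were listed for STAT3β only and its last sites in both lists.

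The run of 4 successive STAT3β-only sites covered 25.5 kb. Over the series there were 69 sets of 4 neighbouring sites on a chromosome, overlapping sets included, in which all 4 were listed for STAT3β only. Of these, 2 covered less than 50 kb, the present one and a set of 25.2 kb on chromosome 3. For STAT3α-only sites there were 53 such sets, of which 3 covered less than 50 kb and the tightest 27.9 kb. For sites in both lists there were 237, of which 15 covered less than 50 kb and the tightest 16.2 kb. The run was picked out after its listing was seen, in an interval chosen for its density, so its short span partly restates that choice.

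In the second group the STAT3α list held 4 of the 6 sites and the STAT3β list 5, so that the lists were closer to equal there. A STAT3β-only site at chr5:91248711-91249110 came first. It was followed by a site in both lists at chr5:91261353-91261752 and by another STAT3β-only site at chr5:91268436-91268835. After 45051 bp without a peak the group ended with 3 sites within 6.56 kb. Of these, the sites at chr5:91313887-91314286 and chr5:91320051-91320450 were in both lists. The site at chr5:91319430-91319829 was in the STAT3α list alone, and its end lay 221 bp from the shared site that follows it. Such pairs, with starts under 1 kb apart, numbered 106 among all 30 min sites, of which 22 joined a STAT3α-only site to a shared one. This pair was the only one in the interval.

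**Figure D2:**
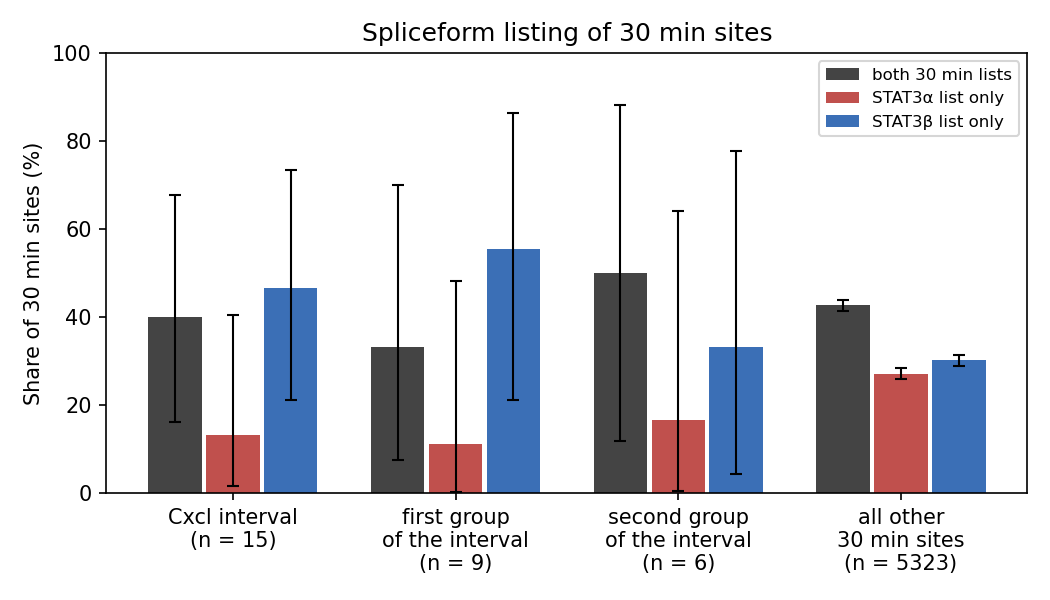
Share of 30 min sites by listing (both lists, STAT3α only, STAT3β only), in percent, for the 15 sites of the chemokine interval, its first group of 9 and second group of 6, and all other 5323 sites. Bars start at 0 and error bars are 95% exact binomial intervals over sites. STAT3β-only sites made up 55.6% of the first group and 33.3% of the second, with wide intervals, against 30.2% of the other sites.

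Seen from each list, shared sites were 6 of the 8 STAT3α peaks of the interval (75%, interval 34.9 to 96.8%) and 6 of its 13 STAT3β peaks (46.2%, interval 19.2 to 74.9%). Outside the interval the same shares were 61.1% of the STAT3α list and 58.6% of the STAT3β list. In the first group STAT3β-only sites were 5 of 9 (55.6%, interval 21.2 to 86.3%), and in the second 2 of 6 (33.3%, interval 4.33 to 77.7%). With 9 and 6 sites both shares are imprecise. On chromosome 5 outside the interval, 23.3% of 343 sites were STAT3α-only and 31.5% were STAT3β-only.

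The sites stood close together. The median distance between the starts of neighbouring sites was 7.4 kb in the interval, with the 30 min lists combined, against 123 kb over all other 30 min sites. Of the 14 distances in the interval 8 (57.1%) were under 10 kb, against 12.5% elsewhere. In the STAT3α list the median distance was 16.7 kb, against 179 kb in the rest of that list. In the STAT3β list it was 7.4 kb, against 190 kb. The interval was chosen for its density, so the comparison shows how dense it was and no more.

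The nearest site before the cluster, at chr5:90795388-90795787, was in both 30 min lists and lay 315 kb from the first site. The nearest site after the cluster in the STAT3β list, at chr5:91465560-91465959, was listed for STAT3β only and lay 145 kb from the last site, less than the median spacing of 190 kb in the rest of that list. In the STAT3α list the next site was 1071 kb away, at chr5:92391404-92391803, and was listed for STAT3α only. All of these neighbours lay outside the bounds of the interval.

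Among windows of 300 kb tiled from the start of the interval, 2699 held at least 1 site of either 30 min list, and none of the others held as many as 15. In the STAT3β list alone the window with 13 peaks was the fullest of 2257. In the STAT3α list alone 6 of 2122 windows held more than its 8 peaks and 3 others held 8. This tiling favours the interval, because it starts at its edge. A placement chosen after the data were seen used windows that start at a site, taken from the fullest down with none overlapping another. Then 1 other window held more sites, 16 on chromosome 17 from 84353831. An equal 15 were held by 1 window, on chromosome 11 from 117641997. With that placement a window on chromosome 2, from 167368771, also held 13 STAT3β peaks, so that the chemokine window was then tied in that list. With the tiled windows shifted by 150 kb, the cluster was split, its fuller part held 9 sites and 9 windows held more.

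**Figure D3:**
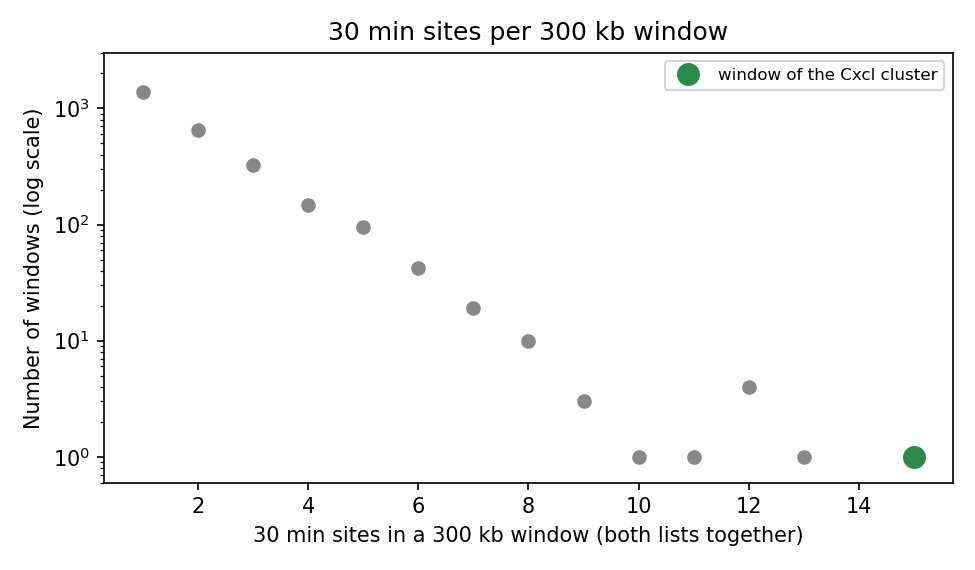
Number of 300 kb windows, on a log scale, against the number of 30 min sites in the window, with the lists combined and windows tiled from the start of the chemokine interval. The point at 15 sites is the chemokine window, and 1392 of the 2699 windows held a single site.

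Windows that start at a site were taken from the fullest down, with none overlapping another. Those with 10 or more sites numbered 13, and the chemokine cluster was compared with the other 12. It held 8 STAT3α and 13 STAT3β peaks, an excess of 5 for STAT3β. None of the others had an excess as large, the largest being 3, and 7 of them held at least as many STAT3α as STAT3β peaks. Such a difference also depends on the number of sites, which was 15 in the cluster. STAT3β-only sites were 46.7% of the cluster, against 0 to 50% in the others, with a median of 14.3%, and 1 of them had a higher share. That window, on chromosome 2 from 125608324, held 5 STAT3α and 8 STAT3β peaks among 10 sites. A window on chromosome 15 from 75910827 held 6 and 9 among 11 sites. Another on chromosome 5 from 107516432 held 6 and 8 among 11. In each of the last windows 45.5% of sites were STAT3β-only, so such a share was not particular to the cluster. Shared sites were 40% of the cluster, against 27.3 to 80% in the others, with a median of 51.9%. The windows were chosen for their density and each is 1 value per list, so no test was made.

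**Figure D4:**
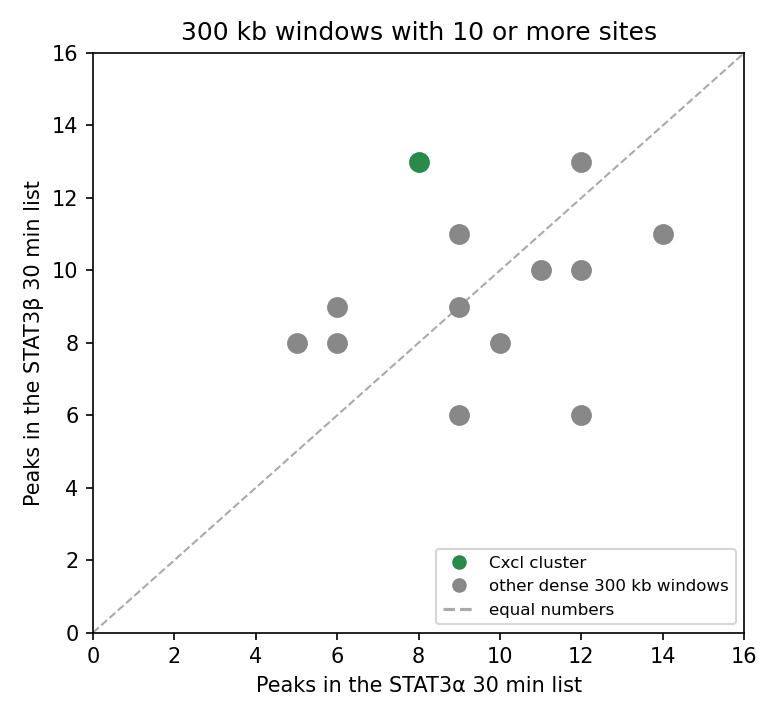
Peaks in the STAT3α 30 min list on the horizontal axis and in the STAT3β 30 min list on the vertical axis, for the 13 non-overlapping windows of 300 kb with 10 or more sites. The broken line marks equal numbers. The chemokine cluster, at 8 STAT3α and 13 STAT3β peaks, lies farthest above it.

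At 0 min neither list held a peak of exact position in the interval or elsewhere on chromosome 5. The 6 peaks of rounded position at 0 min were left out of this count. Over the series 0.169% of the 30 min sites were already listed at 0 min. At 180 min 0 of the 8 STAT3α sites (interval 0 to 36.9%) and 0 of the 13 STAT3β sites (interval 0 to 24.7%) were listed. The background was 0.940% for the STAT3α and 3.03% for the STAT3β 30 min list, so that few sites are listed at 180 min anywhere and 8 and 13 sites are few to set against it. Over either list it was 0 of 15 sites, against 2.40% of the series, and among the shared sites 0 of 6 (interval 0 to 45.9%), against 5.27%. Of the other 12 dense windows, 8 also had no site listed at 180 min. Chromosome 5 carried 2 STAT3α and 10 STAT3β peaks at 180 min. The nearest of them lay 13309 kb before the cluster, at chr5:77801989-77802388, in the STAT3β list. A site missing from a list is not shown to be unbound, since the sources used here do not give the threshold for listing.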

How the data were processed

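Per the labels' protocols, cells were fixed in 1% formaldehyde and their chromatin was sheared to 200 to 500 bp. Duplicates were prepared, and per the labels the reads of a sample were merged. The submitters' processing notes list mm9 as the build and MACS2 2.1.1.20160309, HOMER 4.9, STAR 2.5.0a, Trim Galore 0.4.2 and bedtools as tools. The sources used here do not give the role of each tool, the peak threshold or the use of the 2 input samples, which entered no comparison. The deposited lists hold chromosome, start, end and name of each peak, and no other value, so that depth is unknown. Positions count from 1. Rounded positions of 6 peaks at 0 min were left out of overlaps. Sites overlapping by 1 bp or more counted as shared, and all such sites had identical ends.

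Members and lists were chosen with earlier results of these data known. Every site of the interval is described, and the named genes are the members and their neighbours. Intervals are exact (Clopper-Pearson). The functions were tested on simulated data. Alternatives changed the bounds, the overlap and the windows. Python 3.11.15, numpy 2.4.6, scipy 1.17.1 and matplotlib 3.10.9 were used.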

Additional observations from a re-analysis of the deposited data

How the results depend on the processing

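Of 15 alternative values for 6 results, 10 stayed within the set limits. Some of these could not have changed, so the count is no measure of stability. Shared sites had identical ends, so a required overlap of 50% returned the same 40%. No site lay at the bounds, so counting peaks by their midpoint kept all of them. No 180 min peak lay near the interval, and chromosome 5 held no 0 min peak of exact position. With the first group of sites only, the STAT3α list held 4 sites in place of 8 and the STAT3β list 8 in place of 13, since fewer sites were counted. The rank of the chemokine window depended on how windows were placed. No window held more 30 min sites as reported, and 1 did with windows that start at a site. With windows shifted by 150 kb, 9 held more than the 9 sites of the cluster's fuller part. With 100 kb windows the fullest one of the interval held 7 sites, 3 windows held more and 4 others held 7. A shifted tiling of 100 kb, not among the 15 alternatives, left 1 window with more than 7 and 5 others with 7. The windows that start at a site and the alternatives for the 0 and 180 min lists were chosen after seeing the data. With the interval widened by 100 kb on each side the lists held 8 STAT3α and 14 STAT3β sites, and no 0 or 180 min site of exact position. The shared share was 46.7% when peaks within 1 kb counted as shared. A stricter peak threshold could not be applied, because the lists hold no score. No paired analysis was possible because each group had 1 list. The missing depth and scores limit every comparison of the lists.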
